A study of Mus musculus with 3 samples.

Results

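The p53 pathway was described in mouse embryonic stem (ES) cells with and without Tet1 through 10 genes, namely Trp53, Mdm2, Ccng1, Trp53inp1, Sesn1, Sesn2, Bbc3, Perp, Phlda3 and Bax. A non-control spot on the arrays counted as a member if its gene name, or the current symbol of its transcript accession, was one of these names. The rule found 17 probes on 44 of the 43379 non-control spots of each array, and 16 of the 17 probes were matched by accession. The rule uses gene names and no measured value, but the genes were put together with earlier results of these data known. In the test of all genes they made up 10 of 17709 genes. Of the 10 genes, 4 had 1 probe, 5 had 2 probes and 1 had 3 probes. All 17 probes were well above background on all 3 arrays, so no member was left out by the filter on dim probes.

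The study compared Tet1 knockout (KO) with wild-type (WT) ES cells. Tet1 encodes an enzyme that oxidises 5-methylcytosine in DNA. The cells were V6.5, an established mouse ES line of mixed 129 and C57BL6 background, grown on irradiated feeder cells in medium with the cytokine LIF. RNA came from preplated cells, preplating being a step that removes most feeders, and each sample was hybridised to its own 1-colour Agilent array. The KO group held 2 samples, labelled KO 4 and KO 22, and the WT group held 1 sample. All 3 samples shared the line, the medium and the feeders, and no DNA-damaging agent is named for any of them. The labels do not say whether KO 4 and KO 22 were separate clones or cultures, so the p-values below rest on array-to-array spread that may be only technical. With 1 WT array, the spread of the WT group was not measured and was taken to equal that of the KO arrays.

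The transcription factor p53, encoded by Trp53, is kept scarce in unstressed cells because the ubiquitin ligase Mdm2 marks it for degradation. Damage and other stresses relieve that control, and p53 then binds paired copies of a short motif near its target genes. Mdm2 is itself a target, which closes a negative feedback loop. Other targets slow the cell cycle, limit growth signalling and oxidative stress, or start cell death through the mitochondria. Mouse ES cells are known to express Trp53 RNA abundantly. An RNA array sees neither the amount of p53 protein nor its modifications.

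Promoters are shown first because p53 acts on most of these genes by binding DNA. RefSeq promoter windows on GRCm38.p6, each of 300 bases with 250 before and 50 after the annotated start, were on hand for 8 of the 10 genes, as 11 windows in all. Perp and Trp53inp1 had no entry. Each window was searched on both strands for the p53 decamer, the 10-base unit of the p53 response element, which reads the same on either strand. The decamer was found in 5 of the 11 windows (45.5%), against 8.36% of all 32851 windows in the table. A complete element, made of a pair of decamers with at most 13 bases between them, was in 0 of the 11 windows and in 0.0731% of all windows. The 5 windows with a decamer are printed 5′ to 3′ on the strand of the gene, with the decamer in capitals. They are shown because they belong to genes on both sides of WT by the brightest probe. Mdm2, Ccng1 and Sesn1 were higher on both KO arrays, and Trp53 and Bax were lower on both. For Bax this held except after normexp correction, described under its values. None of these 5 differences passed the test of all genes. The second probes of Trp53 and Ccng1 were split, with 1 KO array on either side of WT. The Sesn1 window is that of its second annotated start, and the window of its other start held no decamer.
Trp53 (chr11:69580109-69580408, plus strand): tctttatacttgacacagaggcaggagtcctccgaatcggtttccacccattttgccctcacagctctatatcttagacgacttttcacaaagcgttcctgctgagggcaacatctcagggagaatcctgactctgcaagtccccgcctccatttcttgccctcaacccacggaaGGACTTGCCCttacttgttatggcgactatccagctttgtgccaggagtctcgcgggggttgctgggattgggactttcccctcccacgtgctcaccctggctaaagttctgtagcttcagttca
Mdm2 (chr10:117710709-117711008, minus strand): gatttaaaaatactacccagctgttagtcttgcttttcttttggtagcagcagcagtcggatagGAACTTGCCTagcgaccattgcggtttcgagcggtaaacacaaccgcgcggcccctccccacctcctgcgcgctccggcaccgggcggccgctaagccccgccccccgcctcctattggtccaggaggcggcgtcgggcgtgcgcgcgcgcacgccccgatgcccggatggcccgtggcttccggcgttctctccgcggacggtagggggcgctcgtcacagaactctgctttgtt
Ccng1 (chr11:40755237-40755536, minus strand): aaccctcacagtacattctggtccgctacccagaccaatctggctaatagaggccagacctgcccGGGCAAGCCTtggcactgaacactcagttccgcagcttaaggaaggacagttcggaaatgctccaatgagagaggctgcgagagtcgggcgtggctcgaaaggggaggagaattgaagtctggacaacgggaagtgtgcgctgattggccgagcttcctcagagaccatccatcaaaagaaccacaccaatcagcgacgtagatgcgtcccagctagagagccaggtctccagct
Sesn1 (chr10:41887189-41887488, plus strand): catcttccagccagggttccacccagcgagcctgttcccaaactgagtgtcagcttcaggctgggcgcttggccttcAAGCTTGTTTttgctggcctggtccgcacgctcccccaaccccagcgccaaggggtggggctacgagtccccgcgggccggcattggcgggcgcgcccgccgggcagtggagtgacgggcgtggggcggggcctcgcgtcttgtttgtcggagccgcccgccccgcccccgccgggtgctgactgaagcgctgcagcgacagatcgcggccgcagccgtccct
Bax (chr7:45466849-45467148, minus strand): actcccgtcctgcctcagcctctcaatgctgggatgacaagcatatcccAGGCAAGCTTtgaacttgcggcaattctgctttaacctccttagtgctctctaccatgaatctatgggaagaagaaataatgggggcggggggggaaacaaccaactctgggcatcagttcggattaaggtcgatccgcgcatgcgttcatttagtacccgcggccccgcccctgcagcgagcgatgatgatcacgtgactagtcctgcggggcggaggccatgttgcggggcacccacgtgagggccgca
The decamer began 75 bases before the start of Trp53, 186 before Mdm2, 185 before Ccng1, 173 before Sesn1 and 201 before Bax. Such a match describes the letters and does not show binding. The windows of Bbc3, Phlda3 and Sesn2 held no decamer within these 300 bases. Elements of p53 targets can also lie in introns, which the windows do not cover.

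Each array carried 45018 spots. The share well above background was 62.2 to 62.8% of non-control spots, with 0 saturated. The probe of the targeted gene Tet1 read 214 on KO 4, 195 on KO 22 and 721 on WT in intensity units, 3.85-fold higher in WT after scaling (limma adjusted p = 0.0529). Whether this probe lies in the part removed in the KO was not known here. The precision of every value is limited by the number of arrays. Of 10 ES cell markers, 9 were measured well above background, and their summed signal was 447718 on KO 4, 483445 on KO 22 and 443599 on WT. Dppa5a alone made up most of that sum, with 335894, 382349 and 336248. After scaling, 6 of the 9 were lower than WT on both KO arrays and 2 were higher, with a median difference of -0.12. Pou5f1 and Esrrb each differed by -0.47 ± 0.09 (limma adjusted p = 0.117 for either). Fgf4 had no probe of this name. Of 20 fibroblast markers, 19 were tested, and their summed signal came to 41776 on KO 4, 27948 on KO 22 and 21399 on WT. The median difference of these fibroblast markers from WT was 0.74 on KO 4 and -0.08 on KO 22. Of the 19, 6 were higher than WT on both KO arrays, 3 were lower on both and 10 were split. Tagln stood furthest above WT, by 1.74 on KO 4 and 1.19 on KO 22. It was also the largest part of the sum on both KO arrays, with 19585 on KO 4 and 12006 on KO 22, against 5090 on WT. Summed fibroblast signal, which is not scaled, was highest on KO 4 and also higher on KO 22 than on WT. Without Tagln, the sum was not higher on KO 22 than on WT. The part of fibroblast signal in the results below was not tested. Fewer cells of a type and less RNA per cell cannot be told apart in such bulk samples.

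Values are given first as processed intensity, the background-corrected brightness of a probe, and then as the level, which is log2 of that intensity minus log2 of the array's 75th percentile. The 75th percentile was 717.7 on KO 4, 644.9 on KO 22 and 623.7 on WT. KO 4 was therefore the brightest array as a whole, and an equal raw intensity on KO 4 and WT is a lower level on KO 4. Differences are KO minus WT on the log2 scale, with the standard error (SE) of a limma fit over all genes and n = 2 KO arrays against 1 WT array. For a gene with several probes, the brightest one stands for the gene. Levels are compared only between arrays for 1 probe, since probes differ in brightness for the same amount of RNA.

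None of the 10 genes passed limma's adjusted p of 0.05, at which 0.356% of all 17709 genes were called. At an unadjusted p of 0.05, 3 of the 10 passed (Perp and Ccng1 higher, Sesn2 lower), against 28.2% of all genes. Mdm2, Ccng1, Sesn1, Perp and Phlda3 were higher than WT on both KO arrays, 5 of 10 against 38% of all genes. Trp53, Sesn2 and Bax were lower on both, 3 of 10 against 45.5% of all genes, and Trp53inp1 and Bbc3 lay on either side of WT. The median difference of the 10 genes was 0.04, beside -0.03 over all genes tested. By the brightest probe, the KO arrays differed from each other by at most 0.18 in any member. The dimmest Sesn1 probe differed by -0.21 (KO 4 minus KO 22). Over all genes, the median size of the difference between the KO arrays was 0.1 and its SD was 0.33. A fit that lets the expected spread depend on signal strength, limma's intensity trend, called Perp and Ccng1 higher and Sesn2 lower. It also called 8.31% of all genes higher and 10.7% lower.

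**Figure D1:**
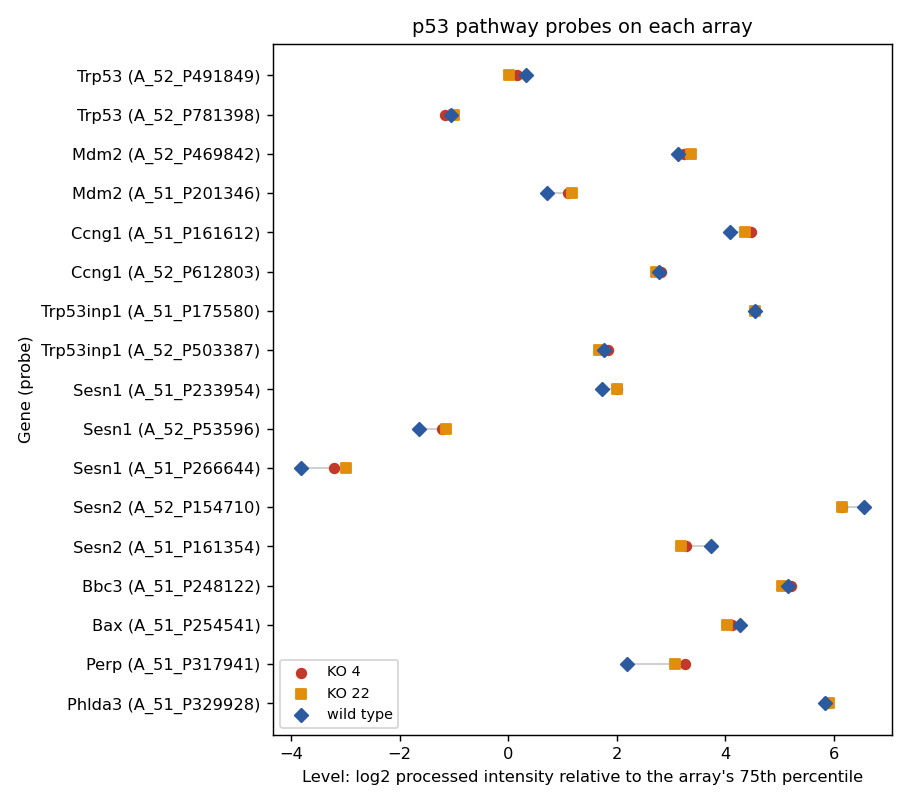
Levels of the 17 probes of the 10 genes on the 3 arrays, as log2 processed intensity minus the array's 75th percentile. Each point is 1 array and each row is 1 probe. The KO points of Perp stand apart from WT (3.26 and 3.07 against 2.19), while the 3 points of the brighter Trp53inp1 probe nearly coincide.

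Trp53, the gene of p53 itself, read 801 in intensity units on KO 4, 654 on KO 22 and 782 on WT. Its levels were 0.16, 0.02 and 0.33, so both KO arrays lay below WT once scaled. The mean difference was -0.24 ± 0.11 (SE, 95% interval -0.59 to 0.12, limma adjusted p = 0.275), and 75.8% of all genes had a higher difference. This probe was spotted 10 times per array. The spots' scaled levels ran from 0.06 to 0.25 (median 0.17) on KO 4, from -0.05 to 0.10 (median 0.02) on KO 22 and from 0.24 to 0.46 (median 0.33) on WT. KO 22 did not overlap WT, and the top of KO 4 met the bottom of WT. Repeat spots read the same RNA and are technical, so they enter no test. A second Trp53 probe, 9.12 kb away, read 320, 325 and 299, with a difference of -0.01 ± 0.13 (limma adjusted p = 0.951 over all probes), so the lower signal of the brighter probe was not seen there. The brighter probe lies at chr11:69671206-69671265 and the other at chr11:69662031-69662089 (mm7, plus strand, as the file headers give the build). A pseudogene, Trp53-ps on chromosome 17, is annotated, and whether either probe also reads it was not examined.

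Mdm2, the ligase that degrades p53, read 6778 on KO 4, 6672 on KO 22 and 5472 on WT with its brighter probe. Its levels were 3.24, 3.37 and 3.13, both KO arrays above WT, with a difference of 0.17 ± 0.11 (95% interval -0.17 to 0.52, limma adjusted p = 0.382). The other Mdm2 probe, 3.39 kb away and spotted 10 times, read 1536, 1462 and 1019. It gave a difference of 0.43 ± 0.10, which is 1.35-fold (limma adjusted p = 0.13 over all probes). Its spots ran from 0.99 to 1.24 on KO 4, from 1.05 to 1.32 on KO 22 and from 0.61 to 0.79 on WT. Every spot on the KO arrays was thus above every spot on the WT array. The probes lie at chr10:117200593-117200652 and chr10:117204040-117204099 (mm7, minus strand). Both probes stood higher in KO cells, by unequal amounts.

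**Figure D2:**
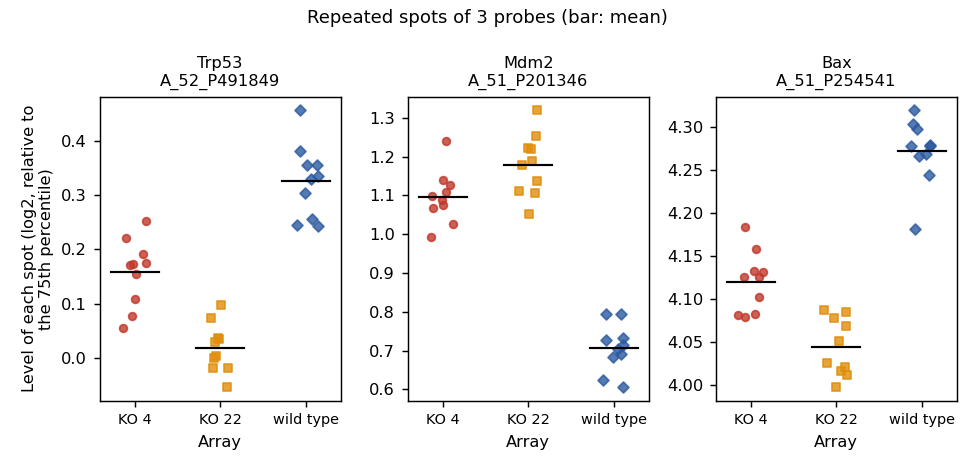
Scaled log2 levels of each repeat spot of the 3 member probes that were printed 10 times per array, Trp53, Mdm2 and Bax. The columns are the arrays KO 4, KO 22 and WT, and the bars are means. The Mdm2 spots of both KO arrays (medians 1.09 and 1.18) lie above all WT spots (median 0.71), while Trp53 and Bax are lower on KO 22 than on WT without overlap.

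Ccng1, which encodes cyclin G1, a p53 target that takes part in Mdm2 regulation, read 15891 on KO 4, 13302 on KO 22 and 10594 on WT. Its levels were 4.47, 4.37 and 4.09, with both KO arrays above WT. The difference was 0.33 ± 0.10, or 1.26-fold (95% interval 0.01 to 0.65, limma adjusted p = 0.173). Over the 8 other settings with a test, the limma adjusted p ranged from 2.17e-07 to 0.361, and 3 of them called Ccng1. The lowest value came from normexp background correction, which called 5212 of all 17709 genes higher and 8633 lower. The second Ccng1 probe, 1.93 kb away, read 5058, 4272 and 4256, and its levels differed from WT by 0.05 on KO 4 and -0.04 on KO 22. The higher signal therefore rests on 1 of the 2 probes, the one at chr11:40693768-40693827 and not the one at chr11:40691782-40691841 (mm7, minus strand). Averaging both probes gave 0.17. Ccng2, the related cyclin G2 gene, differed by 0.25 ± 0.09 (limma adjusted p = 0.214).

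Trp53inp1, whose product is a stress protein that promotes p53 activity and autophagy, showed the smallest difference of the 10 genes at this scaling. It read 16615 on KO 4, 15127 on KO 22 and 14463 on WT, at levels of 4.53, 4.55 and 4.54. The difference was 0.01 ± 0.09 (95% interval -0.27 to 0.29, limma adjusted p = 0.968). Its second probe, 2.94 kb away, read 2560, 2069 and 2118 and gave -0.01 ± 0.12 (limma adjusted p = 0.98 over all probes). Both probes place the gene near 0, within an interval that still holds changes of 0.27 in either direction. The relative Trp53inp2 differed by -0.09 ± 0.09 (limma adjusted p = 0.542).

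The sestrins are stress-inducible proteins that restrain the growth kinase mTORC1, and Sesn1 and Sesn2 stood on opposite sides of WT. Sesn1 read 2869 on KO 4, 2586 on KO 22 and 2066 on WT, at levels of 2.00, 2.00 and 1.73. The difference was 0.27 ± 0.09, or 1.21-fold (95% interval -0.01 to 0.55, limma adjusted p = 0.181). Its other probes were dimmer and stood further from WT. The probe 0.844 kb away read 311, 290 and 199, with a difference of 0.47 ± 0.10, and the probe 5.63 kb away read 78.2, 81.5 and 44.5, with a difference of 0.72 ± 0.14. Neither passed (limma adjusted p = 0.119 and 0.113 over all probes), but all 3 probes were higher on both KO arrays. The probes lie at chr10:41718855-41718914, chr10:41717952-41718011 and chr10:41709061-41713223 (mm7, plus strand). The last spans 4163 bases of genome, more than an array probe is long, so its sequence is split over the genome.

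Sesn2 read 51063 on KO 4, 45954 on KO 22 and 58904 on WT, at levels of 6.15, 6.15 and 6.56. Both KO arrays lay 0.41 below WT, and the fit gave -0.41 ± 0.09, 1.33-fold higher in WT (95% interval -0.69 to -0.13, limma adjusted p = 0.128). Of all genes, 11.5% had a lower difference. The second probe, 0.825 kb away, read 6954, 5875 and 8255 and gave -0.49 ± 0.10, 1.41-fold higher in WT (limma adjusted p = 0.119 over all probes). The probes lie at chr4:131870492-131870551 and chr4:131871376-131871435 (mm7, minus strand), and they gave the same direction and nearly the same size. The direction turned under 1 setting, normexp background correction, which gave 0.21 for the brighter probe. Without 5 spots that were darker than their surroundings, the same correction gave -0.33. The third sestrin gene, Sesn3, differed by 0.12 ± 0.09 (limma adjusted p = 0.463).

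**Figure D3:**
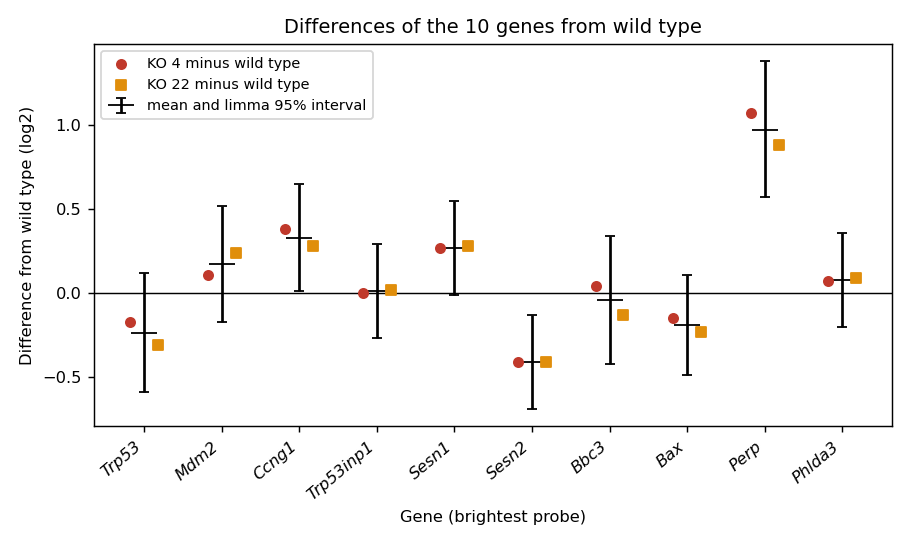
Difference from WT on the log2 scale for each of the 10 genes by its brightest probe. KO 4 and KO 22 are points, and the mean is drawn with its limma 95% interval. Perp stands highest (0.97), both KO points of Sesn1 lie above 0 and both of Sesn2 below 0.

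Perp, a p53 target whose membrane protein serves in desmosomes and in cell death, showed the largest difference of the 10 genes, here and under each of the 8 other settings with a test. It read 6855 on KO 4, 5422 on KO 22 and 2844 on WT, at levels of 3.26, 3.07 and 2.19. Both KO arrays lay well above WT, by 1.07 and 0.88. The difference was 0.97 ± 0.13, or 1.96-fold (95% interval 0.57 to 1.38, limma adjusted p = 0.101). Of all genes, 2.59% had a higher difference. Over the 8 other settings with a test the limma adjusted p ranged from 2.05e-10 to 0.173, and 5 of them called Perp higher. The lowest value came from normexp background correction, which called 5212 of all 17709 genes higher and 8633 lower. Requiring a probe to be well above background on all 3 arrays left the Perp difference at 0.97 with an adjusted p of 0.0441 (limma). That filter called 500 of 16405 genes higher and 411 lower. The values deposited in the series table gave 1.05 for Perp (limma adjusted p = 0.0351), with 501 of 17709 genes called higher and 512 lower. Perp has 1 probe on the array, at chr10:18579623-18579682 (mm7, plus strand), so no second probe bears on it. Summed fibroblast signal stood above WT on both KO arrays as well, on KO 22 only with Tagln counted, as given above. Its part in the Perp difference was not tested.

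Bbc3, which encodes the BH3-only death protein Puma, read 26491 on KO 4, 21203 on KO 22 and 22373 on WT. Its levels were 5.21, 5.04 and 5.16, so WT lay between the KO arrays. The difference was -0.04 ± 0.12 (95% interval -0.42 to 0.34, limma adjusted p = 0.842). Phlda3, whose product competes with the survival kinase Akt for membrane lipids, read 42624, 38878 and 35371, at levels of 5.89, 5.91 and 5.83. It differed by 0.08 ± 0.09 (95% interval -0.20 to 0.36, limma adjusted p = 0.606). Its relative Phlda2 differed by -0.39 ± 0.09 (limma adjusted p = 0.132). For both Bbc3 and Phlda3 the difference was smaller than its SE. Their single probes lie at chr7:14080459-14080518 and chr1:135655060-135655119 (mm7, plus strand).

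Bax, which forms pores in the outer mitochondrial membrane, read 12488 on KO 4, 10644 on KO 22 and 12053 on WT. Its levels were 4.12, 4.04 and 4.27, both KO arrays below WT. The difference was -0.19 ± 0.10 (95% interval -0.49 to 0.11, limma adjusted p = 0.298), and it turned to 0.34 under normexp correction alone. Its 10 spots ran from 4.08 to 4.18 on KO 4, from 4.00 to 4.09 on KO 22 and from 4.18 to 4.32 on WT. KO 22 did not overlap WT, and KO 4 met it at 4.18. The spots of Bax varied by 2.33 to 2.6% (coefficient of variation of intensity) within an array, against 3.14 to 4.68% for Trp53 and 4.23 to 5.48% for Mdm2. The probe is at chr7:41641827-41641982 (mm7, minus strand) and spans 156 bases of genome.

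Over all 17 member probes, 8 were higher on both KO arrays, 4 were lower on both and 5 were split. Among all 26526 probes tested, 39.9% were higher on both and 43.6% were lower on both. None of the 17 was called by limma over all probes, against 0.332% of all probes, and 7 of 17 had an unadjusted p under 0.05, against 27.8%. The intensity trend called those same 7 probes. They were 5 higher ones (Perp, 2 of Sesn1, 1 of Mdm2 and 1 of Ccng1) and the 2 lower ones of Sesn2, where it called 9.35% of all probes higher and 10.5% lower.

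**Figure D4:**
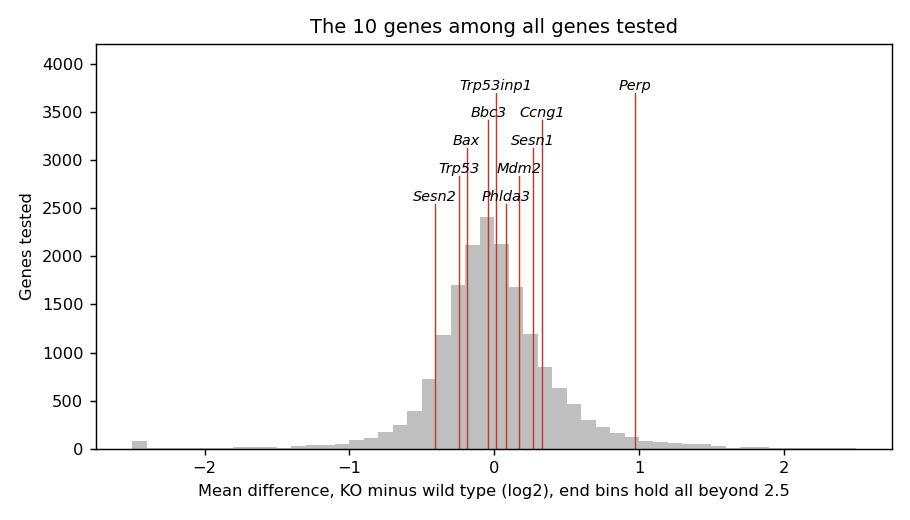
Histogram of the mean KO minus WT difference (log2) over all 17709 genes tested, with the 10 genes marked by red lines; the bins at either end hold all genes beyond them. Sesn2 (-0.41) and Perp (0.97) bound the 10 genes, and the others lie between -0.24 and 0.33.

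Regulators of p53 mostly lay below WT on both KO arrays, except after normexp correction, where 11 of 20 lay above on both and 8 below, with a median of 0.11. Under that correction 7127 of all 17709 genes lay above on both and 9843 below, with a median of -0.2. Of 22 listed genes 20 were tested: 3 were higher on both KO arrays, 16 were lower on both and 1 was split, with a median difference of -0.15 beside -0.03 over all genes. Over all genes 38% were higher on both and 45.5% lower on both. None was called by limma, and at an unadjusted p of 0.05, 2 of the 20 passed as higher and 5 as lower, near the 28.2% of all genes that passed in either direction. Trp73, a relative of p53, read 203 on KO 4, 205 on KO 22 and 363 on WT, with a difference of -0.95 ± 0.12 (limma adjusted p = 0.101). The third family member, Trp63, had 3 probes, of which 0 were well above background on any array. Prkdc, the catalytic subunit of the DNA-dependent kinase of double-strand break repair, read 752, 641 and 1009, a difference of -0.67 ± 0.10 (limma adjusted p = 0.102). Hipk2, a kinase that phosphorylates p53, went the other way at 673, 617 and 445, a difference of 0.41 ± 0.09 (limma adjusted p = 0.128). It has 4 probes, and averaging those well above background on at least 1 array gave 0.12 (limma adjusted p = 0.471). Mdm4, the partner of Mdm2 that blocks p53's activation domain, read 2235, 2081 and 1990 and differed by -0.01 ± 0.09. Cdkn2a, whose Arf product inhibits Mdm2, read 88.6, 107 and 114, a difference of -0.36 ± 0.23 (limma adjusted p = 0.378). Atr had no probe of this name.

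Targets in arrest, repair and metabolism lay on both sides of WT. Of 23 listed genes 21 were tested: 11 were higher on both KO arrays, 7 were lower on both and 3 were split, with a median difference of 0.11, beside shares of 38% higher and 45.5% lower over all genes. None was called by limma, and 2 in each direction of the 21 had an unadjusted p under 0.05, a smaller share than the 28.2% of all genes. Normexp correction raised the list's median to 0.32 and called 13 higher and 5 lower. Of all 17709 genes it called 5212 higher and 8633 lower, with a median of -0.2. Cdkn1a, the p21 inhibitor of cyclin-dependent kinases and the best known arrest target, read 4287 on KO 4, 3651 on KO 22 and 4191 on WT. Both KO arrays lay below WT after scaling, with differences of -0.17 and -0.25 and a mean of -0.21 ± 0.10 (95% interval -0.51 to 0.10, limma adjusted p = 0.269). Normexp correction turned this to 0.27. Its promoter window was the only one of 70 genes of the other pathway lists to hold a pair of decamers. Gadd45a, a growth arrest and damage gene, read 3846, 3422 and 1888, a difference of 0.82 ± 0.09 (limma adjusted p = 0.0982). Gdf15, a secreted stress cytokine, read 720, 607 and 903, a difference of -0.57 ± 0.10 (limma adjusted p = 0.112). Tigar, a fructose bisphosphatase that lowers glycolysis, differed by -0.46 ± 0.13 (limma adjusted p = 0.157). Polh, a polymerase that copies past damaged bases, was dim at 57.3, 61.7 and 42.2 and differed by 0.37 ± 0.16 (limma adjusted p = 0.247).

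Targets in cell death and signalling were likewise divided. Of 20 listed genes 18 were tested: 8 were higher on both KO arrays, 7 were lower on both and 3 were split, with a median difference of -0.01. Among all genes 38% were higher on both and 45.5% lower on both. None was called by limma, and 3 in each direction of the 18 had an unadjusted p under 0.05, against 28.2% of all genes. The median was 0.25 under normexp correction, with 9 called higher and 5 lower. That correction called 5212 of all 17709 genes higher and 8633 lower. Under the other 7 settings with a test the list's median was between -0.02 and 0.07. Ptpn14, a phosphatase that holds back the growth regulator Yap, read 7568 on KO 4, 6476 on KO 22 and 3334 on WT, a difference of 0.94 ± 0.09 (limma adjusted p = 0.0971). Phlda1 read 10501, 9091 and 5173, a difference of 0.79 ± 0.09 (limma adjusted p = 0.1). Tnfrsf10b, a death receptor, differed by 0.57 ± 0.14 (limma adjusted p = 0.142). Trp53i11 was on the other side at 224, 229 and 353, a difference of -0.77 ± 0.13 (limma adjusted p = 0.109). Of the genes named here, Ptpn14, Phlda1, Gadd45a, Trp73 and Prkdc were each called under 5 of the 8 other settings, as Perp was. These list genes were named for their large differences in the same data, and all settings refit the same 3 arrays. The calls are therefore no separate support. Among those settings, the intensity trend called 1472 of all 17709 genes higher and 1900 lower.

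The BCL2 family and the apoptosome, which carry out the mitochondrial death programme, had 18 of 19 listed genes tested. Of these, 5 were higher on both KO arrays, 9 were lower on both and 4 were split, with a median difference of -0.07. The shares over all genes were 38% higher on both and 45.5% lower on both. None was called by limma, and 3 higher and 1 lower had an unadjusted p under 0.05, against 28.2% of all genes in either direction. Normexp correction moved the median to 0.02 and called 6 higher and 7 lower, beside 5212 higher and 8633 lower of all 17709 genes. Bcl2l2, an anti-apoptotic member, read 1154, 1017 and 744 and differed by 0.42 ± 0.09 (limma adjusted p = 0.127). The BH3-only genes did not share a direction. Bik (119 on KO 4, 108 on KO 22 and 73.5 on WT) differed by 0.50 ± 0.09, and Hrk (23.4, 22.4 and 14.9) by 0.49 ± 0.10. Bad (59.6, 44.4 and 64.0) differed by -0.44 ± 0.16. Their limma adjusted p-values were 0.112, 0.121 and 0.209. All 3 probes were dim, and normexp correction turned Bik to -0.93 and Hrk to -1.82.

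**Figure D5:**
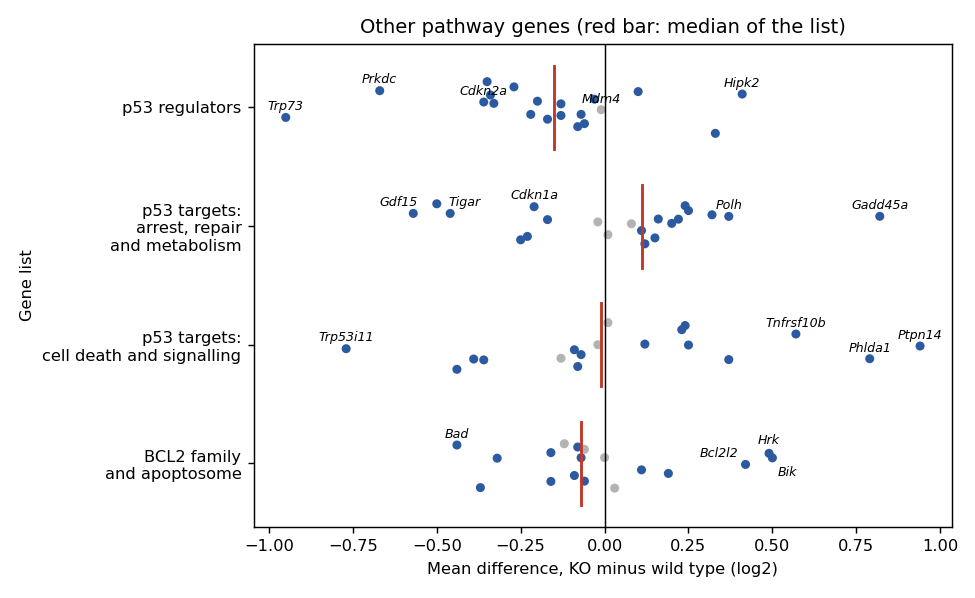
Mean KO minus WT difference (log2) of each tested gene of the 4 other p53 pathway lists. Blue points had both KO arrays on the same side of WT, grey points were split and red bars are list medians. Names mark Cdkn1a, Mdm4, Cdkn2a and the list genes picked for their large differences. The regulators' median is -0.15, and the other 3 medians lie between -0.07 and 0.11.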

How the data were processed

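Total RNA labelled with Cy3 was hybridised to 1-colour Agilent arrays. The authors deposited scanner output of Feature Extraction 10.1.1.1, per the file headers, with intensity values that were background-subtracted and spatially detrended, dim values being replaced by surrogates. A deposited table of log2 values of the same arrays served as an alternative. How its background was corrected was not given in the sources used here. Its median was 5.52 on every array. The tool limma is named in the submitters' processing notes.

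Here, control spots and spots flagged as outliers (67 to 86 per array) were dropped. Intensity was taken to log2, the array's 75th percentile was subtracted, and repeat spots were averaged. Probes well above background on at least 1 array were kept, with the brightest probe standing for its gene. Accessions and symbols were matched to the RefSeq table of GRCm38.p6, which gave a gene to 32719 of 41174 probes (79.5%). KO and WT were compared over 17709 genes, and over 26526 probes, by lmFit and eBayes of limma 3.58.1 under R 4.3.3 (Benjamini-Hochberg adjustment, threshold 0.05). There was 1 residual degree of freedom, 3.03 after moderation. Because few degrees of freedom remain, many SEs sit near the moderated minimum of 0.09.

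The genes and lists were chosen with earlier results of these data known, so no list was tested. The named genes are all 10 members with every probe, then Cdkn1a, Mdm4 and Cdkn2a, then up to 4 genes of each pathway list with the largest mean difference among those well above background on all 3 arrays and with both KO arrays on 1 side of WT. Alternatives changed the normalization, background correction, value table, filter, variance model, probe choice and KO arrays used.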

Additional observations from a re-analysis of the deposited data

How the results depend on the processing

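Over 28 genes and 10 alternative settings, 260 of 280 gene differences kept their direction and 20 turned, in 9 genes. Part of that count was fixed in advance. The filter changes and the intensity trend used the same values and probes for these genes, so they left every difference as it was. The list genes other than Cdkn1a, Mdm4 and Cdkn2a were picked with both KO arrays on 1 side of WT. Leaving out a KO array could therefore not turn them. Normexp background correction moved most: the median over all genes went from -0.03 to -0.2, and the members' median from 0.04 to 0.55. It turned Sesn2 to 0.21, Bbc3 to 0.53, Bax to 0.34, Cdkn1a to 0.27, Mdm4 to 0.37, Polh to -1.39, Bik to -0.93 and Hrk to -1.82. It put 9 members higher and 1 lower on both KO arrays, beside 7127 higher and 9843 lower of all 17709 genes. It called 8 members higher, and called 5212 genes higher and 8633 lower, where the main setting called 6 and 57. Leaving out 5 spots darker than their surroundings by over 20 units, the same correction gave a members' median of 0.02, 2 members called higher and 1 lower, and 1347 genes higher and 1968 lower. Trp53inp1 was then -0.01, Bbc3 0.002, Mdm4 0.04 and Hrk -0.01. The cause was not tested.

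Quantile normalization gave a members' median of 0.10, Bbc3 at 0.05 and Mdm4 at 0.01. The series table's values gave a median of 0.10, Bbc3 at 0.07 and Mdm4 at 0.04, with 1 member called higher and 501 genes higher and 512 lower. The mean of all probes turned Mdm4 to 0.18. Requiring signal on all 3 arrays, which tests fewer genes, called 1 member and 500 genes higher and 411 lower. The intensity trend called 2 members higher and 1 lower, with 1472 genes higher and 1900 lower. With no filter on dim probes, limma calls came to 0 higher and 0 lower, while 2587 and 3381 had an unadjusted p under 0.05. Leaving out either KO array left 1 array against 1, with no test, and a members' median of 0.05 to 0.05. It turned 3 differences near 0: Bbc3 to 0.041 and Trp53inp1 to -0.003 without KO 22, and Mdm4 to 0.017 without KO 4. No paired analysis was possible because the KO and WT samples share no replicate numbers. Low signal over background limits the dim genes Bik, Hrk, Bad, Polh and Cdkn2a, and the dimmest Sesn1 probe. Normexp correction moved Cdkn2a from -0.36 to -1.2.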
